A study of Mus musculus with 2 samples.

Results

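The mouse genome holds 3 related miRNA clusters that descend from 1 ancestral cluster: Mir17-92, and its paralogs Mir106a-363 on chromosome X and Mir106b-25 within the replication gene Mcm7. The 9 hairpin genes of the paralogs are described here. They were matched by gene identifier to GENCODE symbols, and all 9 were found among the 1973 miRNA genes listed in the deposited tables: Mir106a, Mir18b, Mir20b, Mir19b-2, Mir92-2 and Mir363 in the first cluster, and Mir106b, Mir93 and Mir25 in the second. Small RNA was sequenced from limb of B6NCrl mouse embryos at embryonic day 11.5, when the limb is a bud of mesenchyme under an ectodermal sheet. The study holds 1 group of 2 libraries, from pools of 109 and 88 healthy embryos of both sexes, with no treatment, mutation or other age. Both pools carry 1 donor identifier, so the spread between the libraries may be partly technical.

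Each hairpin transcript is cut into mature strands of about the same length, named 5p and 3p by the arm they come from. A mature miRNA guides an Argonaute protein to messenger RNAs that pair with its seed, here bases 2 to 8, and lowers their output. Members with the same seed therefore have overlapping targets. Across the 3 clusters there are 4 seed families, called here the Mir17, Mir18, Mir19 and Mir92 types. The Mir17 type is known to restrain cell-cycle inhibitors such as Cdkn1a and the apoptosis gene Bcl2l11, and Mir17-92 is required for normal skeletal development. The paralog clusters are dispensable singly in mice, whereas loss of Mir106b-25 together with Mir17-92 is more severe than loss of Mir17-92 alone.

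The mature sequences below show which members share a seed, and so how hairpins were grouped into families. Counts are per hairpin, so a family's sum also holds any reads of the arm with another seed. The sequences are RefSeq's, on the GRCm38.p6 assembly. There all 9 hairpins have an entry, with 17 mature arms of 21 to 24 nt between them. Capitals mark the seed. The Mir17 type is carried by 4 members, and miR-17-5p of the Mir17-92 cluster is given for comparison.
miR-17-5p: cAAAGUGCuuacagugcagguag
miR-106a-5p: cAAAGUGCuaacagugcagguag
miR-20b-5p: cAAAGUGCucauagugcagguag
miR-106b-5p: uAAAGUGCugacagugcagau
miR-93-5p: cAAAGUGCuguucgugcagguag

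With positions counted from 1 at the 5′ end and the base of miR-17-5p written first, miR-106a-5p differs by the single change U10A. The change at that position is U10C in miR-20b-5p, which also carries C12U. In miR-106b-5p it is U10G, beside C1U and G20A over the 21 positions compared. The strand from Mir93 carries 4 changes, U10G, A11U, C12U and A13C. All the differences from miR-17-5p thus lie outside the seed, and position 10 differs in every one of these 4 members.

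The Mir92 type is carried by 3 members, through their 3p arms. Mir92-2 shares its 3p arm, miR-92a-3p, letter for letter with Mir92-1 of the Mir17-92 cluster.
miR-92a-3p: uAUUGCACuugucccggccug
miR-25-3p: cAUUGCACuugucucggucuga
miR-363-3p: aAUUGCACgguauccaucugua

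Over the 21 positions compared, miR-25-3p differs from miR-92a-3p at 3, by U1C, C14U and C18U, and miR-363-3p at 11. Mir363 is thus the distant relative, alike in the seed and little beyond it. The Mir18 and Mir19 types have 1 member each, both in Mir106a-363, and Mir106b-25 has neither.
miR-18b-5p: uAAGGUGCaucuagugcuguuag
miR-19b-3p: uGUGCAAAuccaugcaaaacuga

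The strand miR-18b-5p differs from miR-18a-5p by A18U and A20U, whereas miR-19b-3p is made identically by Mir19b-1 and Mir19b-2. Only these 2 members, Mir19b-2 and Mir92-2, share a stretch of 20 nt or more with another annotated miRNA hairpin. The hairpins are printed below because the shared stretch limits what their counts can show. Capitals mark the longest run shared with the paralog.
Mir92-2: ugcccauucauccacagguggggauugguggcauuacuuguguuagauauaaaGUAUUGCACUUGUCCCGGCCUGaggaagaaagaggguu
Mir92-1: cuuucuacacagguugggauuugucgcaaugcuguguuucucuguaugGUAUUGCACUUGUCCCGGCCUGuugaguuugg
Mir19b-2: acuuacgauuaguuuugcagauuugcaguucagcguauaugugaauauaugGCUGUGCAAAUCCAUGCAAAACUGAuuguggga
Mir19b-1: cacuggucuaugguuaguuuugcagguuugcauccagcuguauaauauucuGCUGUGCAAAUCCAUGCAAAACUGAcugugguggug

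The run shared by Mir92-2 and Mir92-1 is 22 nt and ends exactly at the last base of the 21-nt miR-92a-3p. That of Mir19b-2 and Mir19b-1 is 25 nt and ends exactly at the last base of the 23-nt miR-19b-3p. A read of either mature strand as annotated therefore matches both loci equally. Multimapping reads are kept on a separate line of the deposited tables, 24.7% of reads in replicate 1 and 23.4% in replicate 2, and the genes they belong to are not recorded. Counts of Mir92-2 and Mir19b-2, and of their paralogs Mir92-1 and Mir19b-1, therefore leave out any read of the shared strand that was set aside as multimapping, and how many there were was not tested. The other 7 members have no such stretch. Mir106a differs from Mir17 by 1 base over the whole 5p arm, and whether reads of the far more abundant Mir17 were counted at Mir106a was not tested. The 5p arms of Mir18b and Mir18 differ by 2 bases, as do those of Mir20b and Mir20a. Whether reads were misplaced within these pairs was not tested either.

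The hairpins of each cluster are packed closely, as the map of the clusters shows. On mm10, Mir106a-363 covers 875 nt of chromosome X, from 52741693 to 52742567 on the minus strand. Gaps between its hairpins run from 46 nt, between Mir20b and Mir19b-2, to 138 nt, between Mir18b and Mir20b. In order of transcription its hairpins lie at 52742503 to 52742567 (Mir106a), 52742331 to 52742413 (Mir18b), 52742113 to 52742192 (Mir20b), 52741983 to 52742066 (Mir19b-2), 52741838 to 52741928 (Mir92-2) and 52741693 to 52741767 (Mir363). The first hairpin, Mir106a, overlaps the last exon of annotated transcripts of the noncoding gene Kis2 by 3 to 5 nt, and the other 5 lie downstream of its annotated end. Mir106b-25 covers 498 nt of chromosome 5, from 138165321 to 138165818 on the minus strand, with Mir106b at 138165737 to 138165818, Mir93 at 138165523 to 138165610 and Mir25 at 138165321 to 138165404, and gaps of 126 and 118 nt. All 3 hairpins lie in the intron between exons 13 and 14 of the 15-exon Mcm7 transcript, on the strand of the gene. Mir93 and Mir25 also fall in exon 1 of a short Mcm7 transcript annotated as a retained intron, whereas Mir106b does not.

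**Figure D1:**
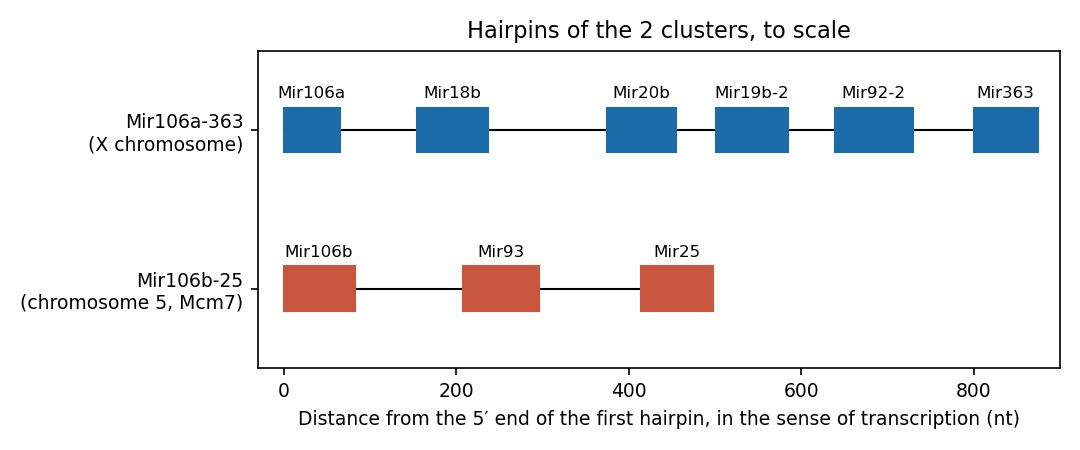
Hairpins of Mir106a-363 (top, 6 boxes) and Mir106b-25 (bottom, 3 boxes), drawn to scale; the x axis is the distance in nt from the 5′ end of the first hairpin along the direction of transcription. The first cluster covers 875 nt and the second 498 nt.

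Levels are sense counts per 1000000 sense counts of all miRNA genes in the library (CPM), with the mean ± SD of the 2 libraries. A read here is a whole mature strand, so no length scaling was applied, and the 5p and 3p arms of a hairpin cannot be told apart. Sense totals were 2953085 in replicate 1 and 3459176 in replicate 2, so that 3 counts, the limit for a gene without reads, equal 1.02 and 0.867 CPM. Neither these limits nor the Wilson 95% intervals include error beyond that of counting, and PCR copies of a molecule are not independent. The tissue label was checked on marker miRNAs: 10 limb and mesenchyme genes, such as those of the Hox clusters, held 18.3% and 17.6% of counts. Markers of other cells held less, at 2.43% and 2.41% for the endothelial Mir126a, 1.32% and 1.53% for 7 epithelial genes, and 0.0380% to 0.0725% for each of the red cell, white cell and skeletal muscle lists. Only 3 of the 4 white cell genes and 3 of the 4 muscle genes were listed, without Mir142 and Mir1a-2. Of the 4 muscle genes, 2 had counts in both libraries, and Mir1a-1 had 0. The strand opposite to Mir142b held 1855 and 1978 counts, which are in none of these lists. The libraries are of whole tissue, so fewer cells of a type and less RNA per cell cannot be told apart.

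Of the 2 paralog clusters, the one in Mcm7 held more of the counts that could be placed. Mir106b-25 held 79157 counts in replicate 1 and 96654 in replicate 2, or 2.68% and 2.79% of all sense counts. Mir106a-363 held 12495 and 14435, or 0.423% and 0.417%, although it has 6 hairpins against 3. The Wilson intervals were 2.66 to 2.70% and 2.78 to 2.81% for the first, and 0.416 to 0.431% and 0.411 to 0.424% for the second. Mir106b-25 thus exceeded Mir106a-363 by 2.70 ± 0.06 log2 units (SD, n = 2), a ratio of 6.34-fold in replicate 1 and 6.70-fold in replicate 2. The counting error of that ratio was 0.01 log2 units in each library. The difference between the clusters was far larger than the spread between replicates. With 2 libraries an exact sign-flip test cannot go below p = 0.5, so no ratio of genes or clusters was tested. Without Mir92-2 and Mir19b-2, whose hairpins share sequence, the ratio was 2.81 log2 units, and per hairpin it was 3.70. Reads of these 2 hairpins set aside as multimapping are missing from Mir106a-363 alone, since no hairpin of Mir106b-25 shares such a stretch. Adding them would lower the ratio, and leaving the 2 hairpins out cannot show by how much. The ratio with those reads was not tested.

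Within Mir106b-25, nearly all counts came from the pair of Mir17-type hairpins. Mir93 was the highest of the 9 members, at 13578 CPM in replicate 1 and 14024 in replicate 2 (mean 13801 ± 315). Mir106b followed at 12339 and 12962 CPM (mean 12651 ± 441). These placed them 16th and 19th among all listed genes by mean level. Mir93 exceeded Mir106b in both libraries, by 0.14 and 0.11 log2 units, or 0.13 ± 0.02 on average, so their levels were close but their order repeated. Mir25, the Mir92-type hairpin at the 3′ end of the cluster, stood far lower at 888 and 956 CPM (mean 922 ± 47.7). It was 3.90 ± 0.04 log2 units below Mir93, its neighbour in the same intron. In shares of the cluster, Mir93 held 50.4% ± 0.33, Mir106b 46.2% ± 0.25 and Mir25 3.37% ± 0.08.

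Within Mir106a-363, levels ranged more widely, and 3 hairpins shared most of the counts. Mir106a led at 1611 CPM in replicate 1 and 1548 in replicate 2 (mean 1579.6 ± 44.2), or 37.6% ± 0.68 of the cluster. Mir363, the last hairpin and a Mir92-type gene, had 1121 and 1105 CPM (mean 1113 ± 11.1), or 26.5% ± 0.01. Mir20b, of the Mir17 type, had 1064 and 1075 CPM (mean 1069.7 ± 7.64), or 25.5% ± 0.43. By the reads that could be placed, the 2 ends of the cluster were thus both among its highest hairpins. The middle members were lower apart from Mir20b. Among them are Mir92-2 and Mir19b-2, whose reads set aside as multimapping are missing from their counts and from the cluster's sum. Whether the pattern and the shares would stay with those reads was not tested. Mir363 and Mir20b were next to each other in level: their difference was 0.08 log2 units in replicate 1, with a 95% counting interval of 0.00 to 0.15, and 0.04 in replicate 2, with an interval of −0.02 to 0.11. Their order is therefore not settled at this depth.

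The other 3 hairpins of Mir106a-363 were low. Mir92-2 had 293 CPM in replicate 1 and 301 in replicate 2, or 7.06% ± 0.21 of the cluster. Mir18b, the X-linked Mir18-type gene, had 128 and 130.1 CPM, or 3.07% ± 0.07. Mir19b-2 was lowest of all 9, at 42 and 45 counts or 14.2 and 13.0 CPM. Its Wilson intervals ran from 10.5 to 19.2 CPM and from 9.72 to 17.4 CPM, above the floor of either library. Neighbouring hairpins of the cluster therefore differed widely in counts: Mir106a was 3.61 ± 0.06 log2 units above Mir18b, and Mir20b 6.30 ± 0.10 above Mir19b-2, 46 nt away. The values of Mir19b-2 and Mir92-2 include only reads that could be placed, as described above.

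**Figure D2:**
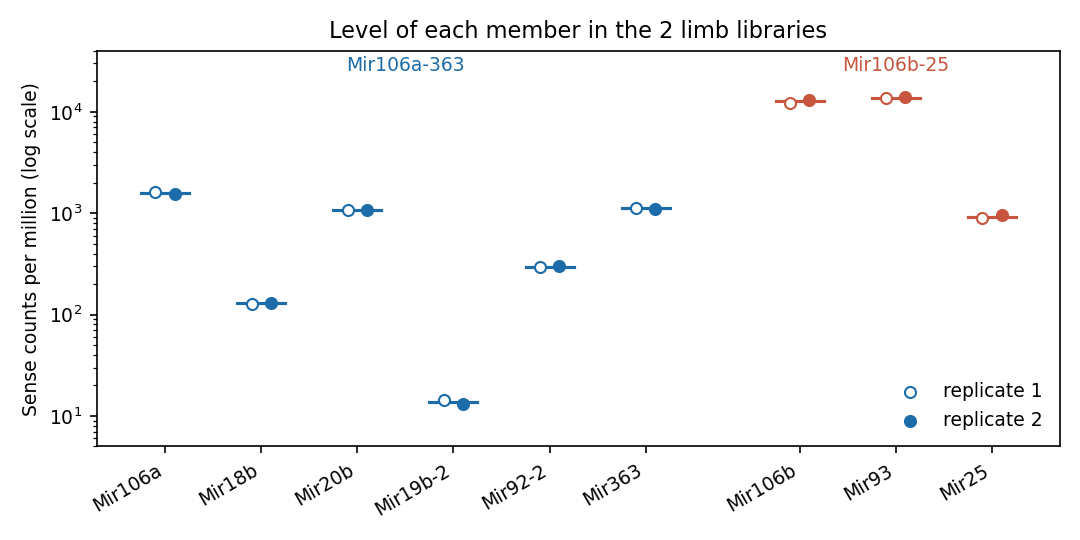
Level of each of the 9 members in sense CPM (log axis), with replicate 1 as open and replicate 2 as filled points and the mean as a bar. Mir93 and Mir106b lie at 12339 CPM or more, Mir106a, Mir363, Mir20b and Mir25 between 888 and 1611 CPM, and Mir19b-2 at 14.2 and 13.0 CPM.

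In order of mean level the members ran Mir93, Mir106b, Mir106a, Mir363, Mir20b, Mir25, Mir92-2, Mir18b and Mir19b-2. Each step exceeded the SD between libraries. The step from Mir363 to Mir20b was the only one of the 8 whose 95% counting interval included 0 in a library. The widest step, 3.25 ± 0.11 log2 units, lay between Mir18b and Mir19b-2, followed by the 8.01-fold step between Mir106b and Mir106a. Mir25, the lowest of its cluster, lay among the X-linked hairpins, 0.22 ± 0.06 log2 units below Mir20b and 1.63 ± 0.05 above Mir92-2. The genes ranked just above and just below the leader of each cluster belonged to none of the 3 clusters. Mir106a stood between Mir301, at 1549 and 1656 CPM, and Mir28a, at 1613 and 1481 CPM. Mir93 stood between Mir10a, at 16087 and 16836 CPM, and the cartilage gene Mir140, at 14609 and 12919 CPM. Both neighbours of Mir106a, and Mir140, differed from the leader by less than the SD of the neighbour, and this nearness rests on 2 libraries.

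The comparison between the clusters depended on the seed family. For the Mir17 type, Mir106b exceeded Mir106a by 2.94 log2 units in replicate 1 and 3.07 in replicate 2 (SD 0.09), a mean ratio of 8.01-fold. Mir93 exceeded Mir20b by 3.67 and 3.71 (mean 3.69 ± 0.02), a 12.9-fold ratio. For the Mir92 type the order was different. Mir363 lay above Mir25 by 0.34 log2 units in replicate 1 and 0.21 in replicate 2 (mean 0.27 ± 0.09), with counting intervals of 0.26 to 0.41 and 0.14 to 0.28. Mir25 lay above Mir92-2 by 1.60 and 1.67 (mean 1.63 ± 0.05), but Mir92-2 is counted only through reads that could be placed. Thus the cluster in Mcm7 was far above the X-linked one in each Mir17-type pair, while its Mir92-type gene was slightly below Mir363. Each of these 4 ratios was larger than its SD.

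Summed by seed family, the 2 clusters made unequal contributions. The sums are of hairpin counts, in which the arm with the seed cannot be told from the other arm. They are therefore not measures of the seed strands alone. The Mir17-type family, 7 listed genes with 12.7% ± 0.16 of all sense counts, drew 20.6% of its counts in replicate 1 and 21.1% in replicate 2 from Mir106b and Mir93. Only 2.13% and 2.05% came from Mir106a and Mir20b, and 77.2% and 76.8% from Mir17 and Mir20a. Mir6383, the only listed gene of this seed outside the clusters, had no count in either library. The Mir92-type family, 7 listed genes with 0.962% ± 0.015 of all counts, drew 14.5% and 14.8% from Mir363 and Mir92-2 and 9.13% and 10.04% from Mir25. The Wilson intervals of the X-linked share, 14.1 to 14.9% and 14.4 to 15.2%, did not overlap those of Mir25, 8.80 to 9.47% and 9.72 to 10.4%. The 2 intervals of Mir25 did not overlap each other either, so these intervals leave out spread between libraries. Both shares are also parts of the same total and are not independent. In this family the 2 X-linked hairpins together thus held more than the 1 hairpin of the Mcm7 cluster. That is the reverse of the Mir17 type, where each cluster has 2. Taken singly, Mir25 lay below Mir363 but above Mir92-2. Reads of miR-92a-3p set aside as multimapping are in none of these shares.

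Genes outside the 3 clusters held 9.18% and 9.20% of the Mir92 type. Mir92b had 512 and 514 CPM and Mir32, whose seed strand is its 5p arm, 381 and 361 CPM, both between Mir25 and Mir92-2 in level. Mir367, of the pluripotency cluster with Mir302, had 0 and 4 counts. The Mir18-type family consisted of Mir18 and Mir18b, and Mir18b held 0.959% and 0.961% of it. In the Mir19 type, Mir19b-2 held 7.16% and 6.87%. That family had only 587 and 655 counts in all, and reads that fit both Mir19b hairpins are in neither count.

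**Figure D3:**
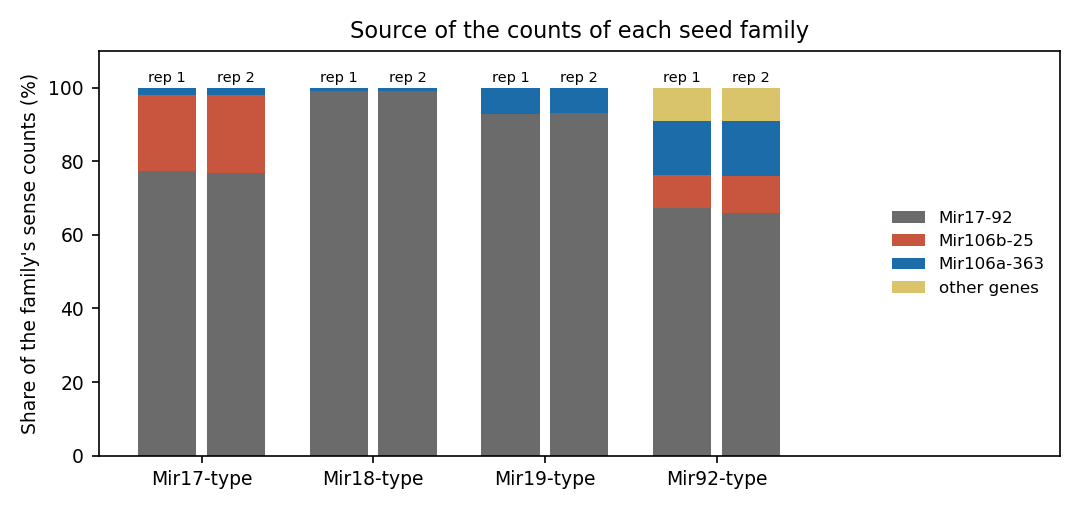
Share of each seed family's sense counts (y axis, %) held by Mir17-92, Mir106b-25, Mir106a-363 and other genes, with 1 bar per library. Counts are per hairpin, with its arms not told apart. Mir106b-25 holds about 21% of the Mir17 type, and Mir106a-363 holds 14.5% and 14.8% of the Mir92 type, above the 9.13% and 10.04% of Mir106b-25.

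Against Mir17-92, which held 11.7% and 11.8% of all sense counts, the X-linked cluster was lower at every paired hairpin, by unequal amounts. Mir18 exceeded Mir18b by 6.69 log2 units in each library, a 103-fold ratio. The SD of that ratio was below 0.01, less than its counting error of 0.07 in each library. Mir17 exceeded Mir106a 45.5-fold, Mir20a exceeded Mir20b by 4.59 ± 0.02 log2 units (24.1-fold), and Mir92-1 exceeded Mir92-2 by 4.43 ± 0.07 (21.6-fold). Mir19b-1 exceeded Mir19b-2 by 1.70 ± 0.10, a 3.24-fold ratio on 130 and 153 counts against 42 and 45. Counting error of the last ratio was 0.26 and 0.24 log2 units. The ratio thus ranged from 3.24-fold to 103-fold along the cluster, or from 24.1-fold to 103-fold over the 3 pairs whose hairpins share no stretch of 20 nt.

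The 2 clusters with 6 hairpins were alike in the order of their paired members at the ends of the scale. The Mir17-type first hairpin led in both, with 61.1% ± 0.46 of Mir17-92 and 37.6% of Mir106a-363, and the Mir19b hairpin was last in both, with 0.0376% and 0.324%. The next Mir17-type hairpin held 22.0% (Mir20a) and 25.5% (Mir20b), and the Mir92 hairpin 5.45% and 7.06%. Counts of the Mir19b and Mir92 hairpins of both clusters leave out reads set aside as multimapping. Whether their places in the order would stay with those reads was not tested. By ratio of shares, the Mir18 hairpin differed most among the pairs that share no stretch: Mir18 held 11.3% ± 0.02 of its cluster, above Mir92-1, whereas Mir18b held 3.07%, below Mir92-2. The Mcm7 cluster was also below Mir17-92 in each pair. Mir17 exceeded Mir106b by 2.51 ± 0.03 log2 units, a 5.68-fold ratio, and Mir20a exceeded Mir93 by 0.90 ± 0.04, a 1.87-fold ratio. Mir92-1 exceeded Mir25 6.95-fold, with an SD of 0.11 log2 units, on counts of Mir92-1 that leave out multimapping reads.

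**Figure D4:**
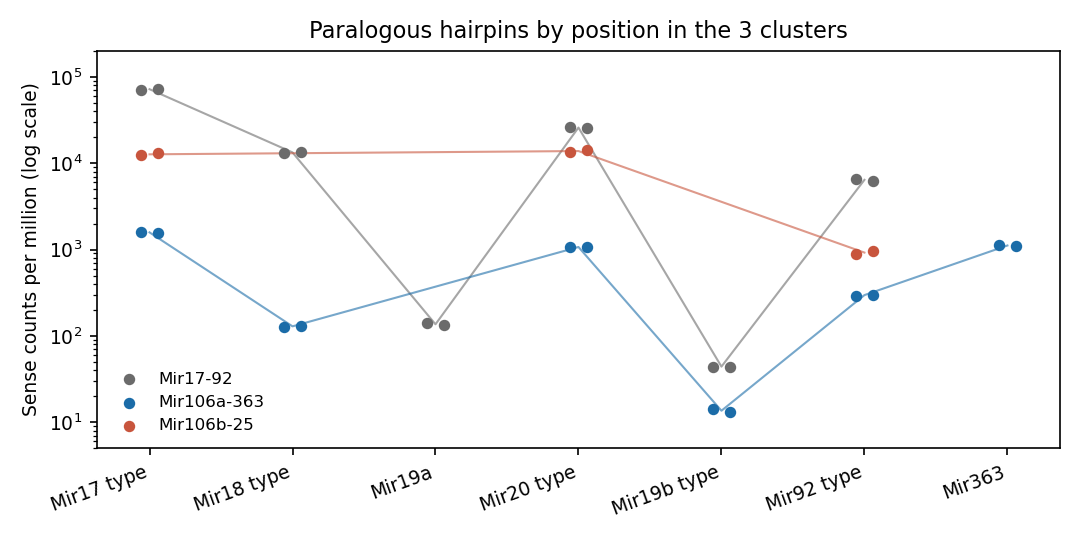
Sense CPM (log axis) of paralogous hairpins by position type in Mir17-92, Mir106a-363 and Mir106b-25, with both libraries as points and lines joining the means within a cluster. Mir106a-363 lies below Mir17-92 at each paired position, and Mir93 lies 0.90 log2 units below Mir20a.

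Replicate libraries were also compared gene by gene over the 422 genes with 10 or more counts, with an exact binomial test (two-sided) of each gene's counts, given the library sizes after TMM scaling, and Benjamini-Hochberg adjustment over all 422. The p-values measure only the spread between these 2 libraries of 1 group, which may be technical, and compare no conditions. Of the 9 members, 2 passed with higher values in replicate 2, against 9.48% of all tested genes, and 0 passed with lower values, against 11.8%; the latter 0 compares with 1 member lower at an unadjusted p under 0.05. The 2 were Mir106b, with a log2 ratio of 0.06 (1.04-fold, adjusted p = 1.13e-07), and Mir93, with 0.03 (1.02-fold, adjusted p = 0.00330). This exact test detects smaller differences at higher counts, and Mir93 and Mir106b had the most counts of the 9. The 9.48% is over tested genes of all depths, and genes of like depth were not compared. Mir25 had the largest positive ratio of the members, 0.09 (1.07-fold), at an adjusted p of 0.0641 by the exact binomial test. It passed when libraries were scaled by total counts or by DESeq2 size factors. All 3 hairpins of Mir106b-25 thus had higher values in replicate 2, where the median log2 ratio of all tested genes was 0.00. Of the 3, 2 passed, against 9.48% of all tested genes.

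Of the 6 hairpins of Mir106a-363, 0 passed in either direction by the exact binomial test, against 21.3% of all tested genes. With 6 hairpins, a count of 0 does not set the cluster apart from all genes. At an unadjusted p under 0.05 by the same test, 1 of the 6 was counted, and the share over all genes at that threshold is not given here. Mir106a had the lowest ratio of those above 100 CPM, −0.07, with an adjusted p of 0.0673 by the exact binomial test, and Mir363 had −0.03. Mir20b, Mir18b and Mir92-2 lay between 0.00 and 0.03, and Mir19b-2 was at −0.14 on 42 and 45 counts. The median log2 ratio of the 9 members was 0.01, against 0.00 over all tested genes. An overdispersed form of the test, which widens the error by the median squared deviation of all genes, kept Mir106b alone (adjusted p = 0.00469), against 11.4% of all tested genes. With the mean squared deviation, chosen after seeing the data, it kept 0 of the members at an adjusted p under 0.05, against 2.84% of tested genes. At an unadjusted p under 0.05 this form also kept 0 members, and the share over all genes at that threshold is not given here. The median absolute log2 ratio was 0.08 over the 201 tested genes at 100 CPM or more, and of the 8 members at that level only Mir25 exceeded it.

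**Figure D5:**
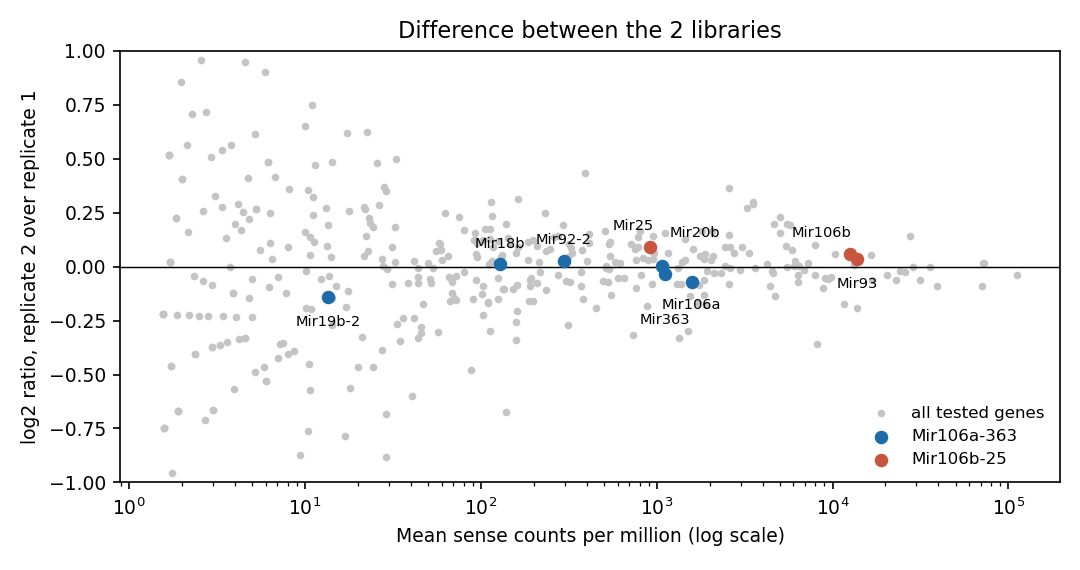
log2 ratio of replicate 2 over replicate 1 (y axis, TMM-scaled) against mean sense CPM (log x axis) for the 422 tested genes in grey, with members of Mir106a-363 in blue and Mir106b-25 in red; 23 genes outside −1 to 1 are not shown. The 9 members lie between −0.14 and 0.09, and the 3 red points are all above 0.

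On the strand opposite to the hairpins the members had almost no reads. The opposite-strand column held 1 count at Mir25 in replicate 1 and 0 at the other 8 members, and 0 at all 9 in replicate 2. That is at or below the 3 counts that a count of 0 allows.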

How the data were processed

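Raw counts of reads per miRNA gene, 1 table per library, were used as deposited. Per the notes deposited with them, the authors used mm10 with an annotation named M4, read here as GENCODE M4. Which aligner and counter they ran is not given in the sources used here. The tables have no header. Column 2 is the total of columns 3 and 4, and column 3, which holds nearly all counts, was read as the sense strand. Unmapped, multimapping, no-feature and ambiguous reads stayed out of totals and tests.

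GENCODE M21, also on mm10, gave symbols and 1-based coordinates. Of 1973 genes 1894 matched, and the 79 others held 4 sense counts. Sequences came from RefSeq. Shared stretches were searched on the sense strand over all GENCODE miRNA transcripts.

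Shares and log2 ratios were computed within each library. The error of a ratio from counting is the Poisson error of both counts. TMM factors were computed with edgeR 4.0.16 (R 4.3.3) on the genes with 10 or more summed counts; its quasi-likelihood test needs a second group. Ratios between libraries used a prior count of 0.5, and calls an adjusted p under 0.05. The overdispersed form divides squared deviations by their median relative to that of a chi-square with 1 degree of freedom (2.64), or by their mean (19.0). The binomial test was tested on simulated Poisson counts with set fold changes. Those counts hold no other spread between libraries, so they cannot show how the test performs on these libraries. DESeq2 1.42.0, Python 3.11.15, numpy 2.4.6, scipy 1.17.1, pandas 2.3.3 and matplotlib 3.10.9 were also used.

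Members, lists, pairs and tests were chosen with earlier results of these data known. Named genes are the 9 members, the Mir17-92 genes, other listed genes that share a seed with a member (given for the 4 families described), and the genes just above and below each cluster leader in mean level. Alternatives covered the count column, denominator, scaling, filter, pseudocount, overdispersion, hairpins that share sequence, and each library alone.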

Additional observations from a re-analysis of the deposited data

How the results depend on the processing

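Of all reads in the tables, rather than of sense counts, Mir106a-363 held 0.191% and Mir106b-25 1.25%. With both strands summed the share of Mir106a-363 was 0.411%, and without Mir92-2 and Mir19b-2, whose hairpins share sequence, 0.389%. The log2 ratio of Mir106b-25 over Mir106a-363 was 2.81 without those 2 hairpins and 3.70 per hairpin; it was 2.66 and 2.74 in single libraries. With 0.5 or 5 counts added to each count, 33 of 38 ratios, from 19 pairs, moved by less than the SD between libraries. The other 5 moved by at most 0.16 log2 units, all with 5 counts. Mir17 over Mir106b was added after seeing the data, and Mir17 over Mir106a was also outside the pairs first listed. Summing both strands tests little, since the opposite strand held 1 count at the members. The 2 calls among the members became 3 with total counts or DESeq2 size factors (Mir25 at adjusted p = 0.0272 and 0.0384), 2 with no filter, 1 with the overdispersed test and 0 with its mean form, which was added after seeing the data. Shares and pair ratios moved by less than their SD when either library was used alone, which with 2 libraries holds by construction. No paired analysis was possible because the series holds 1 group. Depth limits Mir19b-2, and reads that fit several hairpins limit Mir19b-2, Mir92-2 and their paralogs.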
